A study of Mus musculus with 6 samples.

Results

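The genes described here encode the proteins of the mouse cytosolic ribosome. They were chosen by symbol, as protein-coding genes named Rpl or Rps followed by a digit, or Rplp0, Rplp1, Rplp2 and Rpsa, with the Rps6k kinases left out. The rule gave 91 of 21887 protein-coding genes of the RefSeq table. Of these, 46 encode proteins of the large 60S subunit and 31 encode proteins of the small 40S subunit. The other 14 are named like ribosomal proteins but are paralogs, retrogenes, pseudogene-named loci or a binding protein. The 91 genes lie on 19 chromosomes and are short, with a median length of 3175 bp, against 17169 bp over all protein-coding genes.

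The data are 6 chromatin immunoprecipitation sequencing libraries of gastric corpus epithelial cells, taken from mice without culture. Tumor libraries came from CluCreERT2;R26rtTA;HA-Yap+ mice, in which a tamoxifen-activated Cre tied to Clu by its name and a doxycycline-dependent transactivator switch on HA-tagged Yap. Normal libraries came from WT mice. The treatment text attached to all 6 samples gives 2 mg tamoxifen by intraperitoneal injection on 5 days and then DOX food for 14 days. YAP, a transcriptional coactivator, was precipitated in tumor 1, tumor 2, normal 1 and normal 2. H3K27ac, a histone acetylation found at active promoters and enhancers, was precipitated once in tumor and once in normal epithelium. Nothing in the labels ties same-group libraries to different animals, so the p-values below concern only these libraries, and the spread between them may be technical.

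Ribosomal proteins are assembled with ribosomal RNA into a large subunit, which forms peptide bonds, and a small subunit, which reads the messenger RNA. Their genes are active in nearly every cell, have short promoters with sharply placed starts, and often begin transcription inside a run of C and T bases. That run, called a 5' terminal oligopyrimidine tract, ties the translation of these messengers to growth signals through the mTOR pathway. Ribosomal protein messengers have many near-identical processed copies in mammalian genomes, and how reads mapping to several places were treated is not given in the sources used here.

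Each library is a deposited list of summits, the single bases at which peaks are highest, with the authors' score. On the main chromosomes the lists hold 38268 and 53904 YAP summits in tumor 1 and tumor 2, against 1654 and 2141 in normal 1 and normal 2, and 66896 H3K27ac summits in tumor against 22574 in normal. Depth is unknown, so a longer list can hold more genes for that reason, and most counts below stand beside the share over all genes. The words in the peak names go against the labels of 2 YAP libraries. Normal 2 carries the word used in the tumor H3K27ac and tumor 2 lists, and tumor 1 carries the word used in the normal H3K27ac and normal 1 lists. Groups follow the labels here, so directions between YAP groups rest on labels that the names of normal 2 and tumor 1 contradict. Of 13 corpus epithelium markers, 9 had an H3K27ac summit within 1 kb of a gene end in tumor and 11 in normal. Gkn1, Muc5ac and Cblif had no such summit in tumor, Muc6 had none in normal, and Tff2 had none in either. Of 11 markers of immune, stromal and endothelial cells, 3 had one in tumor (Des, Col1a1 and Col1a2) and 4 in normal (Ptprc, Col1a1, Col1a2 and Acta2). The part of such cells in the results was not tested.

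The results turn on the stretch around the start of each gene. RefSeq promoter entries (GRCm38.p6) were matched for 70 of the 91 genes and for 17492 of all genes, and positions count from the annotated start base, with downstream positive. The first set shows Rpl27, the gene with an entry whose YAP site ranked best, and the 4 best-ranked subunit genes with a joint YAP site within 1 kb of the start and the letters CCGGAAG, the core that ETS-family factors read. Each runs from 250 bases before the start to 20 after it, on the gene's own strand, with CCGGAAG on either strand in capitals. The windows are chr11:101441995-101442265, plus strand for Rpl27, chr3:86142648-86142918, minus strand for Rps3a1, chr12:28635933-28636203, minus strand for Rps7, chr14:18270966-18271236, minus strand for Rpl15 and chr4:86857347-86857617, minus strand for Rps6.
Rpl27: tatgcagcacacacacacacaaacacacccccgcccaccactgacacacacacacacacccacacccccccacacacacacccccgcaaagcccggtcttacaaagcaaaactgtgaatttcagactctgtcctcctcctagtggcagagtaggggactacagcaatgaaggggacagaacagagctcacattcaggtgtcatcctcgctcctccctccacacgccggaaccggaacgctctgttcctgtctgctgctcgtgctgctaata
Rps3a1: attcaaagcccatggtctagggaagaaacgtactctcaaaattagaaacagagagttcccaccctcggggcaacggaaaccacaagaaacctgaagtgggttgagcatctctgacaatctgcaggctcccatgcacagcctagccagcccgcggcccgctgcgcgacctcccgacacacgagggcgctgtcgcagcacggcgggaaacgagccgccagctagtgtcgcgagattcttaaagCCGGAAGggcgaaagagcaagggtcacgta
Rps7: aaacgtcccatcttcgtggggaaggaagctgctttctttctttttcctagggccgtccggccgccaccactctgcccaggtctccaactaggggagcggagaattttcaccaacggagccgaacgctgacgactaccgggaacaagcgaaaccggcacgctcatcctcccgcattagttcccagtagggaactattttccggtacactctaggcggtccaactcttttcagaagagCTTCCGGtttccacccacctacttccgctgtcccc
Rpl15: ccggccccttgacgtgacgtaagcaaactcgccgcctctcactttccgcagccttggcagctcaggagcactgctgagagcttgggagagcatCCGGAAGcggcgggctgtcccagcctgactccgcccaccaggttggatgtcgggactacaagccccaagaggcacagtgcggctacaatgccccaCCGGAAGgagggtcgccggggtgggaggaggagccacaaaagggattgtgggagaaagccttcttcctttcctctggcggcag
Rps6: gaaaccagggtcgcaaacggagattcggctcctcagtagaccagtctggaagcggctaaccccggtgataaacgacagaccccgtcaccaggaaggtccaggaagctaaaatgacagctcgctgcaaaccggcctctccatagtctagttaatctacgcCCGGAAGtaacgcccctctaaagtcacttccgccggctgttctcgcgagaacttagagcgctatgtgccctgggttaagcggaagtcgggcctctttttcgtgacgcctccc

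Rpl27 holds no CCGGAAG in this window, though the shorter CCGGAA occurs in it. The match lies at -9 to -3 in Rps3a1 and, on the opposite strand, at -14 to -8 in Rps7. In Rpl15 the letters occur at -157 to -151 and again at -62 to -56, and in Rps6 at -91 to -85. The YAP site shared by both tumor libraries lay at 29 in Rpl27, 151 in Rps3a1, 108 in Rps7, 34 in Rpl15 and 67 in Rps6, so in all 5 it was downstream of the start.

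The second set shows the start itself in 8 genes whose unbroken run of at least 8 C or T bases covers the start base. Capitals mark the run, and each window goes from 30 bases before the start to 20 after it. The windows are chr11:114668550-114668600, plus strand for Rpl38, chr3:90213628-90213678, minus strand for Rps27, chr9:120571487-120571537, plus strand for Rpl14, chr2:26910777-26910827, plus strand for Rpl7a, chr14:24490648-24490698, plus strand for Rps24, chr7:3704011-3704061, plus strand for Rps9, chr7:109519165-109519215, plus strand for Rpl27a and chr7:4792935-4792985, plus strand for Rpl28.
Rpl38: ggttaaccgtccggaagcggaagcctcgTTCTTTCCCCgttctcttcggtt
Rps27: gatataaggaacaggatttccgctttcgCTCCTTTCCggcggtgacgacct
Rpl14: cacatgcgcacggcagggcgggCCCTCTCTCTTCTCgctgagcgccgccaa
Rpl7a: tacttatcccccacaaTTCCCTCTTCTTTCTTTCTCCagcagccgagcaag
Rps24: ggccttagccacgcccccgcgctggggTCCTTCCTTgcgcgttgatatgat
Rps9: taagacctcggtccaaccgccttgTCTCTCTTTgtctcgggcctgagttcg
Rpl27a: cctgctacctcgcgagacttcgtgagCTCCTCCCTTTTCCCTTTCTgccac
Rpl28: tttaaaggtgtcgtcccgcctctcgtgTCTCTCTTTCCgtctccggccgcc

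Runs of this kind cover the start base in 16 of the 70 genes (22.9%), against 3.06% of all promoters. A run within 30 bases of the start is present in 36 of the 70 (51.4%), against 22.3% of all. In the whole window, from 250 bases before the start to 50 after it and on both strands, CCGGAAG is present in 25 of the 70 (35.7%), against 11.9% of all promoters. The 30 matches lie at a median of -56 from the start, and 21 are within 100 bp of it. YAP itself does not bind DNA and is known to act through TEAD factors, often beside AP-1. The TEAD letters GGAATG are present in 6 of 70 (8.57%), against 13.4% of all, and the AP-1 letters TGANTCA in 2 of 70 (2.86%), Rpl22 and Rpl9, against 7.08% of all. The 6 genes with GGAATG are Rpl26, Rpl36al, Rps16, Rps24, Rps26 and Rps27. The YY1 letters AAGATGG occur in 9 of 70 (12.9%), against 6.37% of all, and the Sp1 letters GGGCGG in 40 of 70 (57.1%), against 46.3%. None of the CCGGAAG matches overlapped a match of the other letters or the longest C and T run near the start, read on the gene's strand (0 genes). For the AP-1 letters this was fixed in advance, since TGANTCA and CCGGAAG cannot overlap. A C and T run can hold only part of a CCGGAAG match. The searched window ends 50 bases after the start. The YAP site shared by both tumor libraries lay beyond that end in Rps3a1, Rps7 and Rps6. Over the ribosomal protein genes with such a site within 1 kb of the start, its upper quartile was 91 bp downstream. The letters under sites beyond the window were not searched. All of these are letters in a reference, and a match is not a site in use.

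The first comparison asked how many ribosomal protein genes had YAP at them in tumor against normal epithelium. A YAP summit was assigned to 79 of the 91 genes in tumor 1 and to 83 in tumor 2, against 0 in normal 1 and 4 in normal 2. Over all protein-coding genes the shares with a summit were 66.3% in tumor 1 and 70.8% in tumor 2, against 2.79% in normal 1 and 5.98% in normal 2. The means over the 91 genes were 81 ± 2.83 genes in tumor and 2 ± 2.83 genes in normal (SD, n = 2 each), a difference of 79 genes that was far larger than the spread within each pair. In bulk libraries like these, more cells with YAP at a gene and more YAP per cell cannot be told apart. The exact two-sided permutation test over the 4 libraries gave p = 0.333, and no smaller value is possible with 2 libraries per group. Regrouped by the words in the peak names, the difference was 4 genes (exact permutation p = 0.667, n = 2 per group).

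With every YAP list shortened to the 1654 best-scored summits, the length of normal 1, the counts were 18 and 24 genes in tumor 1 and tumor 2, against 0 and 4 in normal 1 and normal 2. At that length the shares over all genes were 6.72% in tumor 1 and 6.81% in tumor 2, against 4.63% in normal 2. The members' shares of 19.8% and 26.4% in tumor 1 and tumor 2 thus stood above the background at equal length, and the 4.40% in normal 2 was close to it.

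**Figure D1:**
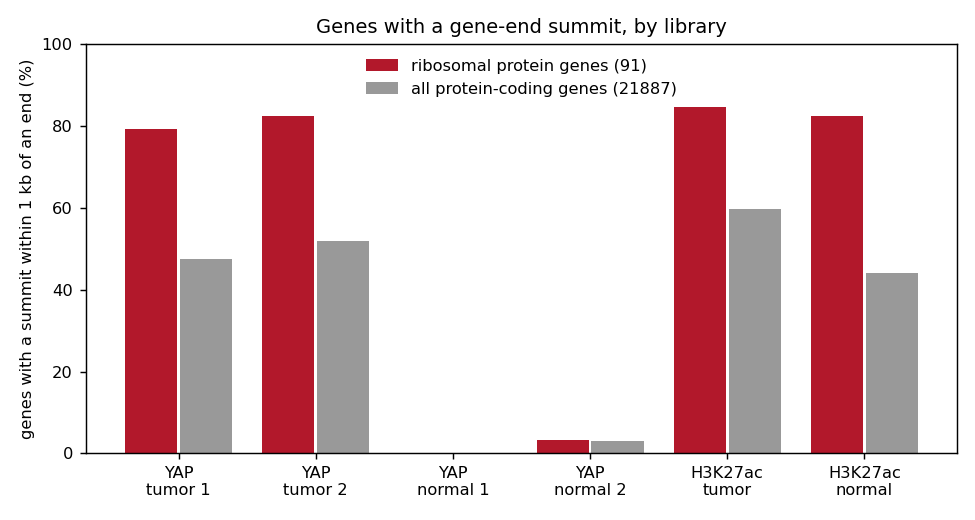
Share of genes (%) with a summit within 1 kb of a gene end in each of the 6 libraries, for the 91 ribosomal protein genes (red) and all 21887 protein-coding genes (grey), with 1 bar per library and no error bar. The red bars stand at 79.1% and 82.4% in YAP tumor 1 and 2, against 0% and 3.30% in YAP normal 1 and 2, and at 84.6% in H3K27ac tumor against 82.4% in H3K27ac normal.

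The summits of both tumor libraries were then joined into YAP sites, by pairing summits within 200 bp one to one and taking the midpoint. Such a site was assigned to 74 of the 91 genes (81.3%), against 60.0% of all genes. The site was within 1 kb of a gene end (the start or end coordinate) at 68 of the 91 (74.7%), against 41.4% of all. In single libraries a gene-end summit was present at 72 genes in tumor 1 (47.5% over all genes) and 75 in tumor 2 (52.0%), against 0 in normal 1 (0.0822%) and 3 in normal 2 (3.07%). In all, 105 joint sites were assigned to these genes, and 70 of them (66.7%) were within 1 kb of a gene end, against 38.2% of all assigned joint sites. Of the 74 genes with a site, 51 had 1 site, 19 had 2 and 4 had 3 or more, and this split was not taken over all genes. Rpl14 had 6 sites, Rpl11 had 4, and Rps24 and Rps14 had 3 each. In Rpl14 the site 58 bp from the gene end ranked best and the other 5 lay 2583 to 28374 bp away. No joint site of the normal libraries, of 453, was assigned to any of the 91 genes.

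By role, the gene-end site was present at 37 of 46 genes of the large subunit and 26 of 31 of the small subunit, and at 5 of the 14 like-named genes. Together the genes of both subunits had one at 63 of 77 (81.8%). Measured at the annotated start instead, all 57 subunit genes with a promoter entry had a summit within 1 kb in both tumor libraries, 34 of the large and 23 of the small subunit. Of the like-named genes, 5 of 13 did. Over the 70 genes this is 62 (88.6%), against 53.1% of all genes with an entry. At the start, tumor 1 had a summit in 62 of the 70 genes (54.2% over all genes) and tumor 2 in 63 (58.1%), against 0 in normal 1 (0.0457%) and 3 in normal 2 (3.75%).

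Ribosomal protein genes also had high-ranked H3K27ac in tumor, and YAP sites were common over all genes with that mark. Among genes with a gene-end H3K27ac summit in both libraries, a gene-end YAP site was present at 64 of 73 ribosomal protein genes (87.7%), against 80.8% of all such genes. Among genes whose best gene-end H3K27ac summit in tumor was in the best 10% of that list, it was present at 49 of 57 (86.0%), against 85.5%. Within that best 10%, the share of ribosomal protein genes with a gene-end YAP site was thus near the share of all such genes. Ranks inside the best 10% were not matched gene by gene.

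The 12 genes with the best-ranked joint site were Rpl21, Rpl27, Rpl35a, Rps27a, Rps29, Rps23, Rps12, Rpl34, Rpl22l1, Rps20, Rpl24 and Rps3a1. A rank is given as the percentage of the list at or above the site's score, so a small value is a high score. Rpl21, a protein of the large subunit, had the best, at 0.136% in tumor 1 and 0.0779% in tumor 2, with its site at chr5:146833026 (GRCm38, as all positions here), 136 bp inside the gene. Rpl27, also of the large subunit, stood at 0.337% in tumor 1 and 0.161% in tumor 2, with its site at chr11:101442274, 29 bp after the start. Rpl35a, mutated in some cases of Diamond-Blackfan anaemia in humans, stood at 0.308% in tumor 1 and 0.378% in tumor 2, with its site at chr16:33056340, 113 bp before the start. These 3 genes were among the highest of both lists.

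Rps27a, which encodes ubiquitin fused to a protein of the small subunit, stood at 0.342% in tumor 1 and 0.406% in tumor 2, with its site at chr11:29547997, 43 bp inside the gene. The tumor 1 summit of that site was by itself nearer to a neighbouring gene, so Rps27a has no assigned summit in tumor 1 alone. Rps29, also of the small subunit, stood at 0.588% in tumor 1 and 0.341% in tumor 2. Rps23, whose protein lies at the decoding centre, stood at 0.421% in tumor 1 and 0.996% in tumor 2. Rps12 stood at 0.870% in tumor 1 and 0.788% in tumor 2, so 7 genes were within the best 1% of both tumor lists. The share of all genes within both was not taken. In tumor 1 alone, the best gene-end summit was in the best 1% for 6 of 72 genes, against 204 of 10404 over all genes. In tumor 2 alone, it was for 8 of 75, against 329 of 11375. Rpl22l1, a paralog of Rpl22, had the best-ranked site of the like-named genes, at 2.78% in tumor 1 and 0.918% in tumor 2. At the other end, the single site of Rpl10, a late-joining protein of the large subunit, ranked at 56.0% in tumor 1 and 31.4% in tumor 2. The joint site of Rps10 ranked lower, at 94.5% in tumor 1 and 65.6% in tumor 2, but it lay 904 bp from the gene. The best summits of Rps10, at -164 in tumor 1 and 42 in tumor 2, ranked at 2.88% and 4.93% and were too far apart to be paired.

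Over the genes with a gene-end summit, the best rank had a median of 10.2% in tumor 1 (n = 72), against 20.8% over all genes, and 6.29% in tumor 2 (n = 75), against 16.7%. The best 10% of the list held 35 of 72 genes in tumor 1 (48.6%, against 25.8% of all) and 47 of 75 in tumor 2 (62.7%, against 32.8%). The scores of the 2 tumor libraries ordered the genes alike, with a Spearman rho of 0.78 across 72 genes. The YAP scores were ordered less like the H3K27ac scores in tumor, with a rho of 0.46 for tumor 1 (n = 69) and 0.52 for tumor 2 (n = 70). Genes are not independent replicates, and these relations share libraries and their depth.

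**Figure D2:**
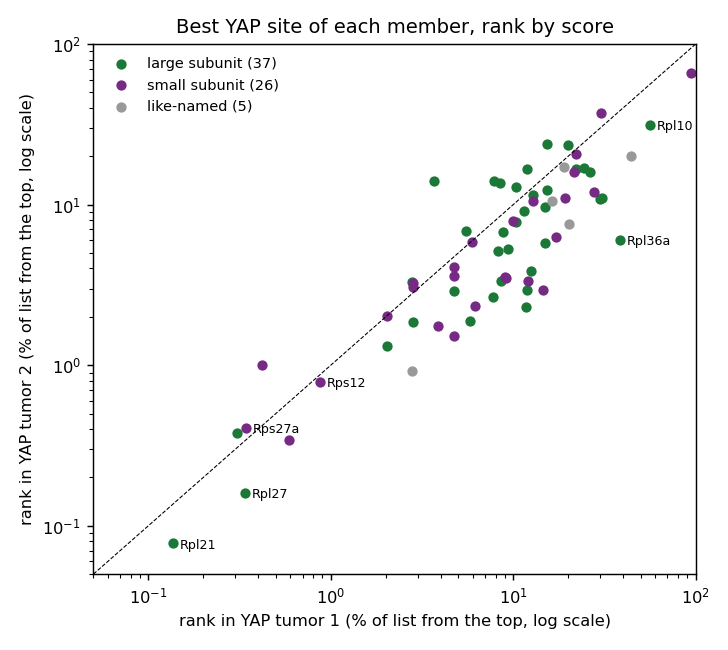
Rank of the best joint YAP site in tumor 1 (x axis) and tumor 2 (y axis), as % of each list from the top on log scales, for the 68 genes with a gene-end site (green, 37 of the large subunit; purple, 26 of the small subunit; grey, 5 like-named), with the line of equal rank dashed. Rpl21 and Rpl27 lie lowest, under the line, and Rpl10 and Rpl36a are labelled to the right of it, at 56.0% and 38.3% in tumor 1.

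The remaining 23 of the 91 genes had no gene-end joint site, and most had YAP nearby all the same. At Rpl9, Rplp2 and Rpl37 the site lay at the gene's own start but nearer to the neighbours Lias, Pidd1 and Card6. Rplp2 encodes part of the stalk that recruits elongation factors. At Rpl22, Rps27l, Rpl19 and Rps2 it lay at the annotated start, which is over 1 kb inside the gene's outer coordinates. Rpl3l and Rps18 had a site at an own end that was assigned elsewhere. In a further group that includes Rps16, Rps25, Rpl23, Rpl30 and Rpl39, both tumor libraries had a summit at the gene's own start or end, but these were not paired within 200 bp. Rpl32l and Rpl17 had a joint site only farther away. Counted at a gene's own start or end whichever gene is nearer, 74 of the 91 genes (81.3%) had a joint site, against 46.5% of all genes. That count was added after the data were seen. Taken library by library in this way, 80 genes had a summit in tumor 1 (53.0% over all genes) and 81 in tumor 2 (57.5%), against 0 in normal 1 (0.0868%) and 6 in normal 2 (3.62%).

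The 6 genes with no YAP summits of both tumor libraries near an end were all like-named: Rpl37rt, Rps23rg1, Rps27rt, Rpl10l, Rpl39l and Rpl31-ps12. Rpl10l and Rpl39l are paralogs used mainly in the testis. Rps23rg1 had a summit 83 bp before its start in tumor 2 only. The muscle paralog Rpl3l had a joint site within 1 kb of its own end, but no YAP summit within 1 kb of its annotated start in tumor 1 or tumor 2.

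In the libraries labelled normal, YAP summits were assigned to 4 ribosomal protein genes, all in normal 2. Rpl21 had the best-ranked of them, at 21.2% of the list and 185 bp from the gene end. Rpl17, whose summit lay 1753 bp away, stood at 34.8%, Rpl29 at 43.1% and 574 bp, and Rps7 at 54.0% and 55 bp. Rps27a, Rpl36al and Rpl37 also had a normal 2 summit within 1 kb of an own end, but it was nearer to Clhc1, Mgat2 and Card6. The one at Rpl37 ranked at 11.2% and those at Rpl36al and Rps27a at 30.9% and 60.7%. The gene with the best site in both tumor lists, Rpl21, was thus also among the few with a summit in normal 2, the library whose peak names carry the tumor word.

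YAP summits were placed tightly around the starts. In the 55 genes with a joint site within 1 kb of the start (78.6% of 70, against 47.2% of all genes), the site lay at a median of 34 bp downstream, with an interquartile range of -15 to 91. Over all genes the median was 1 and the range -113.25 to 96. The site was within 200 bp of the start in 53 of 55 (96.4%), against 79.0% of all. Each library showed this on its own, with medians of 25.5 bp in tumor 1 and 37 bp in tumor 2. Rpl10 lay farthest upstream, at -386, and Rpl24, a protein of the large subunit, farthest downstream, at 192.

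The H3K27ac summit nearest the start of each gene lay farther into the gene than YAP. Its median was 215.5 bp in tumor (interquartile range 181 to 279.25) and 217 bp in normal (133 to 275.25), against 187 bp and 200 bp over all genes.

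**Figure D3:**
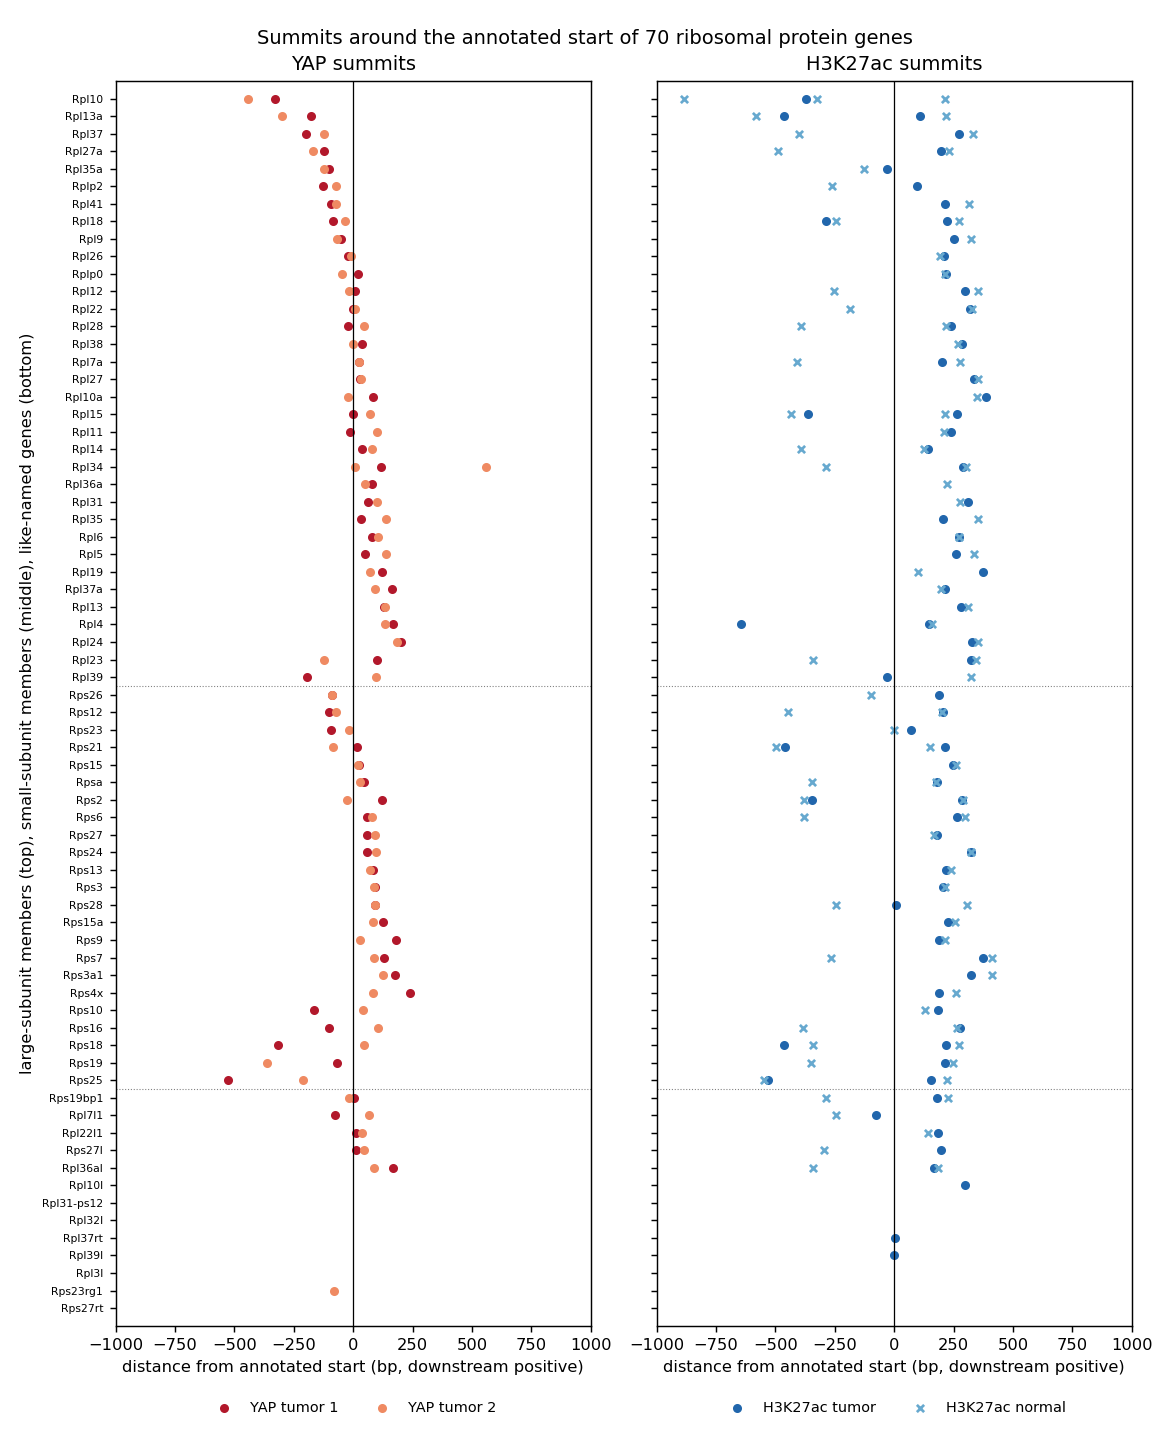
Every summit within 1 kb of the annotated start (distance in bp, downstream positive) for 70 genes, 1 row each, with 34 large-subunit genes on top, 23 small-subunit genes in the middle and 13 like-named genes at the bottom. Left, YAP tumor 1 (dark red) and tumor 2 (orange) lie mostly within 200 bp of the start line, with Rps25 and Rpl10 farther upstream in both. Right, H3K27ac tumor (dark circles) and normal (light crosses) have the summit nearest the start at medians of 215.5 and 217 bp downstream, with further summits upstream. The 3 YAP normal 2 summits are not drawn.

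The second comparison asked where H3K27ac lay at these genes in tumor against normal epithelium, with 1 library of each and so no test. An H3K27ac summit was assigned to 87 of the 91 genes in tumor (81.4% over all genes) and to 82 in normal (54.3%). A gene-end summit was present at 77 of the 91 genes in tumor (84.6%) and 75 in normal (82.4%), against 59.7% of all genes in tumor and 44.0% in normal. With the tumor list shortened to the length of the normal list, 68 genes in tumor had one (74.7%, against 44.9% of all genes). Both libraries had one at 73 genes (80.2%), against 41.1% of all. Among the subunit genes it was 70 of 77 in each library.

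A gene-end summit in tumor only was found at 4 of the 91 genes (4.40%), against 18.7% of all genes. These were Rpl37rt, Rplp2, Rpl10l and Rpl39l. The tumor summits of Rpl37rt, Rpl10l and Rpl39l were low in their list, at 94.8%, 51.6% and 78.1%. Rplp2 stood at 9.31% in tumor, and in normal it had a summit within 1 kb of its own end that was assigned to the neighbour. A summit in normal only was found at 2 genes (2.20%), Rpl3l and Rpl36a, against 2.93% of all. These stood at 51.3% and 58.4% of the normal list. In tumor, Rpl3l also had a summit within 1 kb of an own end, but it was assigned to another gene.

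Neither library had a gene-end summit at 12 genes (13.2%), against 37.3% of all. For Rpl22, Rps27l, Rpl38, Rpl19 and Rps2 both libraries had a summit within 1 kb of the annotated start. Rps27a had a summit of each library at an own end that was assigned elsewhere. Rpl34-ps1 had no H3K27ac summit in tumor or in normal. The others were Rpl17, whose summits lay farther off, and the like-named Rps23rg1, Rps27rt, Rpl32l and Rpl31-ps12. At the annotated start, 64 of 70 genes had an H3K27ac summit in tumor (91.4%, against 65.1% of all) and 62 in normal (88.6%, against 50.4%).

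Rank within each list also set these genes high in tumor. The best gene-end H3K27ac summit was in the best 10% of the list for 57 of 77 genes in tumor (74.0%, against 41.1% of all) and for 10 of 75 in normal (13.3%, against 18.1%). The median rank was 6.47% in tumor, against 12.6% over all genes, and 20.5% in normal, against 28.7%. The lists differ in length, so the ranks in tumor and normal cannot be set against each other as a change. Among these gene-end summits, that of Rpsa, a small-subunit protein also known as the laminin receptor, ranked best in both lists. It stood at 0.0837% in tumor and 0.952% in normal. In normal the summit of Rpl19 ranked higher, at 0.753%. It lay 102 bp after the annotated start but 3681 bp from the nearest gene end, so it was not counted here. Rpl10 stood at 72.2% in tumor and 11.3% in normal, and Rpl41, which encodes a very short protein, at 89.7% in tumor and 32.2% in normal.

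The pattern of H3K27ac around the start differed between the lists. Summits on both sides of the start were present in 8 of the 64 genes with a summit in tumor (12.5%, against 8.32% of all genes) and in 26 of the 62 in normal (41.9%, against 21.2%). Of 61 genes with a summit within 1 kb in both libraries, 19 (31.1%) had both sides in normal but not in tumor, against 15.9% of all genes. Only Rpl4 had both sides in tumor but not in normal (1.64%, against 3.36%), and 7 genes had them in both (11.5%, against 5.59%). With the tumor list shortened to the length of the normal list, both sides were present in 8 of 55 genes in tumor (14.5%, against 5.17% of all). The 70 genes had 72 summits within 1 kb of the start in tumor and 89 in normal.

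**Figure D4:**
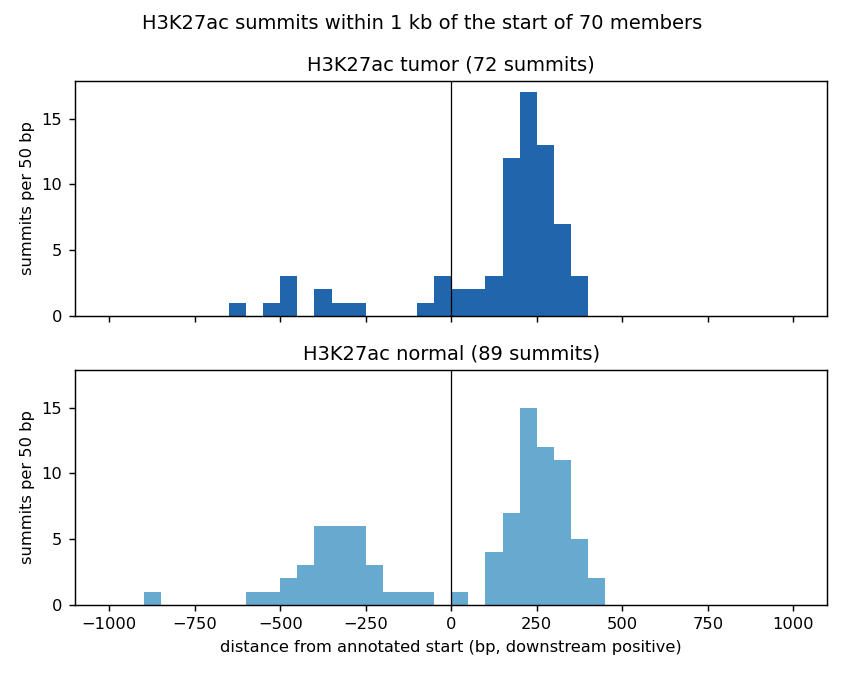
Number of H3K27ac summits in 50 bp steps of distance from the annotated start (bp, downstream positive) over the 70 genes, tumor above (72 summits) and normal below (89 summits). Both have a peak of summits downstream of the start, and the normal list has a second group upstream that is sparser in tumor.

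Counted per gene at equal list length, the genes had 87 H3K27ac summits in tumor and 117 in normal. The count was higher in tumor at 5 genes, equal at 58 (50 of them with a summit) and lower at 28. Over the 91 genes the median log2 ratio (tumor + 1 over normal + 1) was 0 and the mean -0.22. Over the 83 with a summit in either list the median was 0 and the mean -0.24, against 0 and -0.03 over all genes with a summit. Of the 83 ribosomal protein genes with a summit in either list, 28 (33.7%) had fewer in tumor, against 31.2% of all genes, and 5 (6.02%) had more, against 25.0%. Those with more in tumor include Rps20, Rpl18, Rplp2 and Rps14. Those with fewer include Rpl10, with 0 summits in tumor and 3 in normal, Rpl41, with 0 in tumor and 2 in normal, and Rplp1, a stalk protein, with 1 in tumor and 3 in normal. With the full lists, where the tumor list is the longer, 28 of 89 genes with a summit had more in tumor (31.5%, against 69.9% of all genes) and 20 had fewer (22.5%, against 8.87%), so the split depends on list length. When summits closer than 2 kb were merged at equal length, 7 of 82 had more in tumor (8.54%, against 18.8% of all genes) and 13 had fewer (15.9%, against 25.2%).

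Other genes of the translation machinery were counted in the same way. A gene-end joint YAP site was present at 51 of 78 mitochondrial ribosomal protein genes (65.4%), 41 of 56 translation initiation factors (73.2%), 5 of 8 elongation factors (62.5%) and 17 of 22 ribosome biogenesis genes (77.3%). The elongation factor list holds Tpt1, which is not named as an elongation factor, beside genes named Eef1 or Eef2. The share was 74.7% over all 91 ribosomal protein genes of the rule, against 41.4% of all protein-coding genes. At the 77 subunit genes alone, which leave out the 14 like-named genes, it was 81.8%. No genes were left out of the other lists in this way, and the difference between the lists was not tested. Among the best-ranked sites were those of Eif4enif1, which carries the cap-binding protein eIF4E into the nucleus, at 0.303% in tumor 1 and 0.304% in tumor 2, and of Mrps5, a mitochondrial ribosomal protein, at 0.408% in tumor 1 and 0.221% in tumor 2. Pes1, needed to process ribosomal RNA, stood at 0.604% in tumor 1 and 0.564% in tumor 2. An H3K27ac gene-end summit was present at 55 mitochondrial ribosomal protein genes in tumor and 58 in normal, at 48 initiation factors in tumor and 46 in normal, and at 16 biogenesis genes in each. YAP normal 2 had a summit at 7 of 78 mitochondrial ribosomal protein genes (8.97%) and 8 of 56 initiation factors (14.3%), against 5.98% of all genes. It had one at 1 of 8 elongation factors (12.5%), 0 of 22 biogenesis genes (0%) and 4 of the 77 subunit genes (5.19%).

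**Figure D5:**
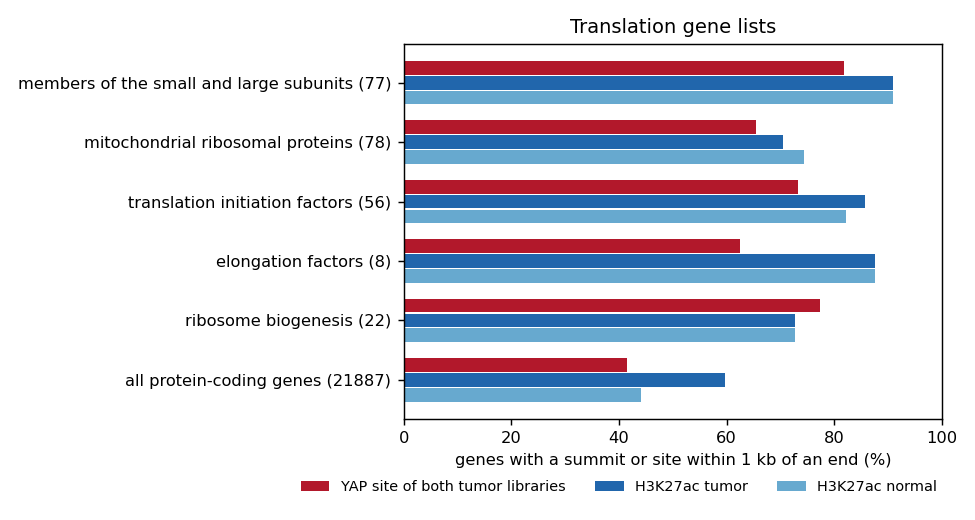
Share of genes (%) in each translation gene list with a joint YAP site of both tumor libraries (red), a tumor H3K27ac summit (dark blue) or a normal H3K27ac summit (light blue) within 1 kb of a gene end, with the number of genes in brackets and no error bar. The 77 subunit genes stand at 81.8%, 90.9% and 90.9%, and all 21887 protein-coding genes at 41.4%, 59.7% and 44.0%. The full set of 91 genes, at 74.7%, 84.6% and 82.4%, is not drawn.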

How the data were processed

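The 6 libraries are chromatin immunoprecipitations of YAP and H3K27ac. Per the submitters' processing notes, Bowtie2 and MACS2 were used with GRCm38 (mm10). The sources used here give no versions, calling thresholds or control. Each deposited list holds summits 1 bp wide, called per sample, and the authors' score of a summit is a −log10 value. Whether it stands for p-values or q-values is unknown, so it only ranks or filters summits inside 1 list. Depth is unknown, so no interval or floor is given.

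Autosomal, X and Y summits were assigned to the protein-coding gene with the nearest start or end within 50 kb (RefSeq, GRCm38.p6). Joint sites pair summits one to one within 200 bp, and a gene-end site lies within 1 kb. An annotated start is the first start that the RefSeq promoter table lists for a gene. The log2 ratio of summit counts used a pseudocount of 1. Python 3.11.15, numpy 2.4.6, pandas 2.3.3, scipy 1.17.1 and matplotlib 3.10.9 were used. The assignment of summits to genes and their pairing into joint sites were tested on simulated data, and the other steps were not.

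The members, lists and tests were chosen with earlier results of these data known, so no p-value is adjusted over the list; 5 of the 14 like-named genes were classed so once the gene table was seen. Named in full were the 12 genes with the best-ranked joint site, those with a normal YAP summit, those whose H3K27ac call differed between tumor and normal, those with neither call, and tissue-restricted paralogs. Other genes named were chosen after their values were seen. From each comparison list up to 4 genes could be named. Alternatives changed the windows, matching distance, score minimum, list length, libraries, grouping and replicate block.

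Results for a few individual genes are not reported here.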

Additional observations from a re-analysis of the deposited data

How the results depend on the processing

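Counts of genes with a joint YAP site ranged from 65 to 79 over the other matching distances, windows, score minimums and inside-gene assignment (39.6% to 63.4% of all genes), and gene-end counts from 57 to 74 (29.4% to 46.5%) except at the annotated start, where 55 of the 70 genes with an entry had one (47.2%). With groups taken from the peak-name words, a joint site was present at 4 of the 91 genes (3.72% of all genes) and a gene-end site at 3 (2.15%). Leaving out 1 YAP tumor library, which then needs no pairing, gave 79 to 83 genes with a site (66.3% to 70.8%) and 72 to 75 with a gene-end one (47.5% to 52.0%). The difference of 79 genes per YAP library became 77 to 81 without 1 library, 78.5 with scores of at least 5 and 19 at equal list length. With a replicate block it stayed 79 (exact sign-flip permutation p = 0.5, n = 2 pairs, the smallest possible). The numbers pair the samples only by name: the tumor and normal differences between replicates correlated at 0.0167 over genes. Apart from the annotated start, H3K27ac gene-end counts ran from 68 to 83 of the 91 genes in tumor and from 72 to 80 in normal. The 68 came from the tumor list at equal length, where 44.9% of all genes had a gene-end summit. For the other distances and the score minimum, no share over all genes was taken. At the start, 64 of the 70 genes had a summit in tumor (65.1% of all genes) and 62 in normal (50.4%). Counts at a gene's own ends were added after the data were seen. They gave 74 for YAP (46.5% of all genes), and 80 (64.5%) and 78 (48.0%) for H3K27ac in tumor and normal. Unknown depth limits what an absent summit can show.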
